A study of Mus musculus with 514 samples.

Results

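The transcripts described here belong to 9 genes of the mouse egg: the zona pellucida genes Zp1, Zp2 and Zp3, the oocyte growth factor genes Gdf9 and Bmp15, the oocyte-secreted protein gene Oosp1, the tissue plasminogen activator gene Plat, and the maternal genes Zar1 and Mos. They were found by exact gene name. All 9 were present among the deposited values, 8 of the 55168 named genes of the full-length read table, and Bmp15, which was read from the 55247 named genes of the UMI table. Zar1 and Mos encode proteins that work inside the egg and are not secreted. They stand with the others as classical transcripts of the grown oocyte.

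The libraries were made from single mouse metaphase II (MII) oocytes and single whole embryos by a full-length protocol derived from FLASH-seq, which primes polyadenylated RNA with oligo-dT. Each specimen gave full-length reads and, from transcript 5' ends, reads carrying a unique molecular identifier (UMI). The unit of both tables is TPM, transcript abundance scaled for gene length and library total. The genes Nr5a2 and Esrrb, which encode orphan nuclear receptors, were deleted singly or together. Of 514 samples, 373 libraries had values used here, 263 of full-length and 110 of UMI reads.

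In MII oocytes the genotypes were Nrpp (9 oocytes, floxed or wild-type control), NrHet (18 oocytes, heterozygous for Nr5a2) and NrKO (12 oocytes, Nr5a2 knockout). Early 2-cell embryos (E2C) comprised mz_Nrpp (21 embryos) and mz_NrHet (29 embryos) as controls. The knockouts at that stage were maternal-zygotic (mz_NrKO, 22 embryos), zygotic (z_NrKO, 12) and maternal (m_NrKO, 18). From the late 2-cell stage (L2C) on, the control was mz_DHet, heterozygous for both receptor genes, and the maternal-zygotic knockouts were of Esrrb (mz_EKO), Nr5a2 (mz_NrKO) or both (mz_DKO). At L2C these groups held 7, 10, 10 and 6 embryos, in the order mz_DHet, mz_EKO, mz_NrKO and mz_DKO, beside 7 z_NrHet and 6 z_NrKO embryos. At the 4-cell stage (4C) they held 6, 4, 5 and 10 embryos, and at the 8-cell stage (8C) 21, 10, 10 and 10, of which 16, 9, 5 and 9 UMI libraries were used. The heterozygous controls thus carry a receptor mutation too, and the Cre driver, mouse strain and age, mother and litter are not given in the sources used here.

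The zona pellucida is the extracellular coat of the egg, built by the growing oocyte from ZP proteins that assemble into filaments, and it binds sperm and later keeps the cleaving embryo together until hatching. GDF9 and BMP15 are TGF-beta family ligands through which the oocyte directs its granulosa and cumulus cells. Transcription stops in the fully grown oocyte, so these messages are stored, lengthened or shortened in their poly(A) tails during meiosis, and then destroyed as the embryo's own genome becomes active. In oligo-dT primed libraries, a change in transcript number and a change in poly(A) tail cannot be told apart. For whole embryos, fewer cells of a type and less RNA per cell cannot be told apart either.

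The 3' ends of these transcripts differ among the members, and the windows that follow show where the signals for cleavage and polyadenylation lie. The annotated 3' UTRs of the zona genes were very short, 34 bases in Zp1, 49 in Zp2 and 13 in Zp3, against a median of 803 bases over 20966 genes. Only 0.362% of those genes had a 3' UTR as short as that of Zp3 or shorter. Gdf9 had 360 bases, Bmp15 1523, Oosp1 230, Plat 738, Zar1 146 and Mos 126. Each window below is 30 bases, 5′ to 3′ on the transcript's strand, from the GENCODE M21 transcripts of the mm10 build. Capitals mark the poly(A) signal AATAAA in the zona transcripts, and in Gdf9 and Plat a cytoplasmic polyadenylation element (CPE, letters TTTTAT, or the variant TTTTAAT), the kind of element bound by CPEB1 in maturing oocytes.
Zp1, chr19:10914289-10914318, minus strand: actcAATAAAccattgtttgaaaactcctg
Zp2, chr7:120132352-120132381, minus strand: tgcaAATAAAgagactgcagttaaactctt
Zp3, chr5:135988595-135988624, plus strand: tatcccttccgcAATAAAagaagaaactca
Gdf9, chr11:53437855-53437884, plus strand: gagtgctgtggTTTTATgtgacggaagaat
Plat, chr8:22782745-22782774, plus strand: gtatatttataTTTTAATctattttagttt

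The Zp3 signal began 18 bases from the transcript's end, inside the coding sequence, so that in Zp3 the poly(A) signal overlapped the stop of the reading frame. No 3' UTR of the 3 zona genes held either form of the CPE, as letters on the transcript strand. In the last 100 bases of the 3' UTR, the TTTTAT form was found in Gdf9 and in 13.7% of 19456 3' UTRs, and the TTTTAAT form in Plat and in 5.02% of them. The poly(A) signal AATAAA was in that window in 63.8% of the same 19456. Only 3' UTRs of at least 100 bases were counted in these shares, so the shorter zona 3' UTRs lie outside them. A match is a string of letters and was not tested as a working site.

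Promoter sequence was matched for 4 of the 9 members, Zp3, Zar1, Oosp1 and Bmp15, in the RefSeq table of the GRCm38.p6 assembly (250 bases before and 50 after the annotated start). The promoters of Zp3, the member that differed at 8C, and Zar1, which differed at E2C, are shown with capitals on each E-box (CANNTG), the element bound by the oocyte factor FIGLA with its partners.
Zp3, chr5:135979855-135980154, plus strand: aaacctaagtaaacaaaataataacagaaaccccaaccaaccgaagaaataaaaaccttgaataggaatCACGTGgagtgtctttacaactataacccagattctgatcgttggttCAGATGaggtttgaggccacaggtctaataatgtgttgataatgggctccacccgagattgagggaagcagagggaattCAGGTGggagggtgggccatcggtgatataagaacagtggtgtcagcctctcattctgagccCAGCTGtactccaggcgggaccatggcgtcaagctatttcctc
Zar1, chr5:72581035-72581334, minus strand: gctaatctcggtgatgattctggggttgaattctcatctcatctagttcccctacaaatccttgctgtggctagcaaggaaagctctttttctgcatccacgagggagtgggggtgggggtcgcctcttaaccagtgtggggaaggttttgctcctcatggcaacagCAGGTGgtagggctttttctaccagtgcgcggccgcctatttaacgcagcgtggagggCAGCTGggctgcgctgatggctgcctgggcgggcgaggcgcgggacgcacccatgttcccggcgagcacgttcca

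Zp3 held 4 E-boxes, Zar1 2, Oosp1 5 and Bmp15 1, and 72.3% of 32851 promoters held at least 1, with a median of 1. E-box letters read the same on both strands. The extended single site of the NR5A and estrogen-related receptors, searched as AAGGNCA on both strands, was in none of the 4 promoters and in 20.3% of all promoters. These are the letters of 300 bases only.

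The 9 genes lay apart in the genome except that Zp1 (chr19:10914287-10920632) and Oosp1 (chr19:11667460-11691150), and Zp3 (chr5:135980099-135988624) and Zar1 (chr5:72576806-72581254), share a chromosome. The others were Zp2 at chr7:120126772-120145291, Gdf9 at chr11:53431023-53437904, Bmp15 at chrX:6314107-6320721, Plat at chr8:22757727-22782844 and Mos at chr4:3870657-3872105, all protein-coding genes in mm10.

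Some libraries stood apart or did not match their numbers. Read depth is unknown, since TPM does not keep it. Full-length libraries listed 10655 to 15971 genes above 1 TPM, and UMI libraries 9274 to 12190. Each UMI library was set beside all full-length libraries of its stage over genes centred within the stage. The closest full-length library had the same embryo number for 42 of 46 UMI libraries at L2C and 25 of 25 at 4C, but for 0 of 39 at 8C. At 8C the closest library was still of the same genotype in 38 of 39, and the exception, UMI mz_DHet embryo 12, was closest to a full-length mz_NrKO embryo. All closest full-length libraries at 8C were labelled 8 March 2022, also for the UMI libraries labelled 23 February 2022. Labelled dates of UMI 8C libraries are therefore uncertain. The UMI 8C fits hold them as a factor, and values are also given without that factor and without mz_DHet embryo 12. The E2C mz_NrKO embryo 1 had the lowest Zp1, Zp2, Gdf9, Oosp1 and Zar1 of its 22 libraries and an Esrrb level of 1253 TPM against a group median of 14.7 TPM.

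The level of the whole Nr5a2 gene did not check the labels. Its median was 79.6 TPM in E2C mz_NrKO against 84.4 TPM in mz_NrHet, and at 8C it was higher in mz_DKO than in mz_DHet (log2 difference 0.64, limma adjusted p = 0.0025). Esrrb UMI reads at 8C had medians of 1.67 TPM in mz_EKO and 2.89 TPM in mz_DKO against 43.8 TPM in mz_DHet (log2 differences -3.88 and -3.23, limma adjusted p = 7.72e-16 and 1.22e-13). Markers of cumulus and granulosa cells, which surround the oocyte, summed to group medians of 90.5 to 122 TPM over 16 genes in oocytes, with 8 to 11 genes at a median of 0 per group, Foxl2, Amh and Fshr in all 3. Cyp19a1, the aromatase gene, held most of the sum, at medians of 85.2 to 104 TPM, followed by Kitl at 4.47 to 6.46 TPM.

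In control specimens, most of these transcripts were at their highest in the MII oocyte and near 0 at 8C, but the zona genes did not move as a set. The comparisons that follow are of neighbouring stages, by limma on log2(TPM + 1), so that a fold change of a low gene is understated, and a gene counts as changed at an adjusted p under 0.05 over all genes tested. From oocyte (Nrpp) to E2C (mz_Nrpp), 6 of 8 members fell and 1, Zp2, rose, where 12.6% of all 16852 genes tested fell and 39.6% rose. From E2C (mz_NrHet) to L2C (mz_DHet), 6 of 8 fell and 1, Zp3, rose, against 40.3% and 35.6% of all genes. From L2C to 4C only Zp1 fell, against 7.41% of all genes, and from 4C to 8C 7 of 8 fell, against 37.6% of all genes. The median log2 change of the 8 members over these steps was -2.25, -2.17, -0.65 and -3.10, and that of all genes 0.43, -0.17, -0.07 and -0.36. Oocytes, early 2-cell embryos and later embryos have separate labelled dates, so stage and date cannot be told apart for the first and second steps. The 4C and 8C controls share no date either, and each shares a date only with L2C.

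**Figure D1:**
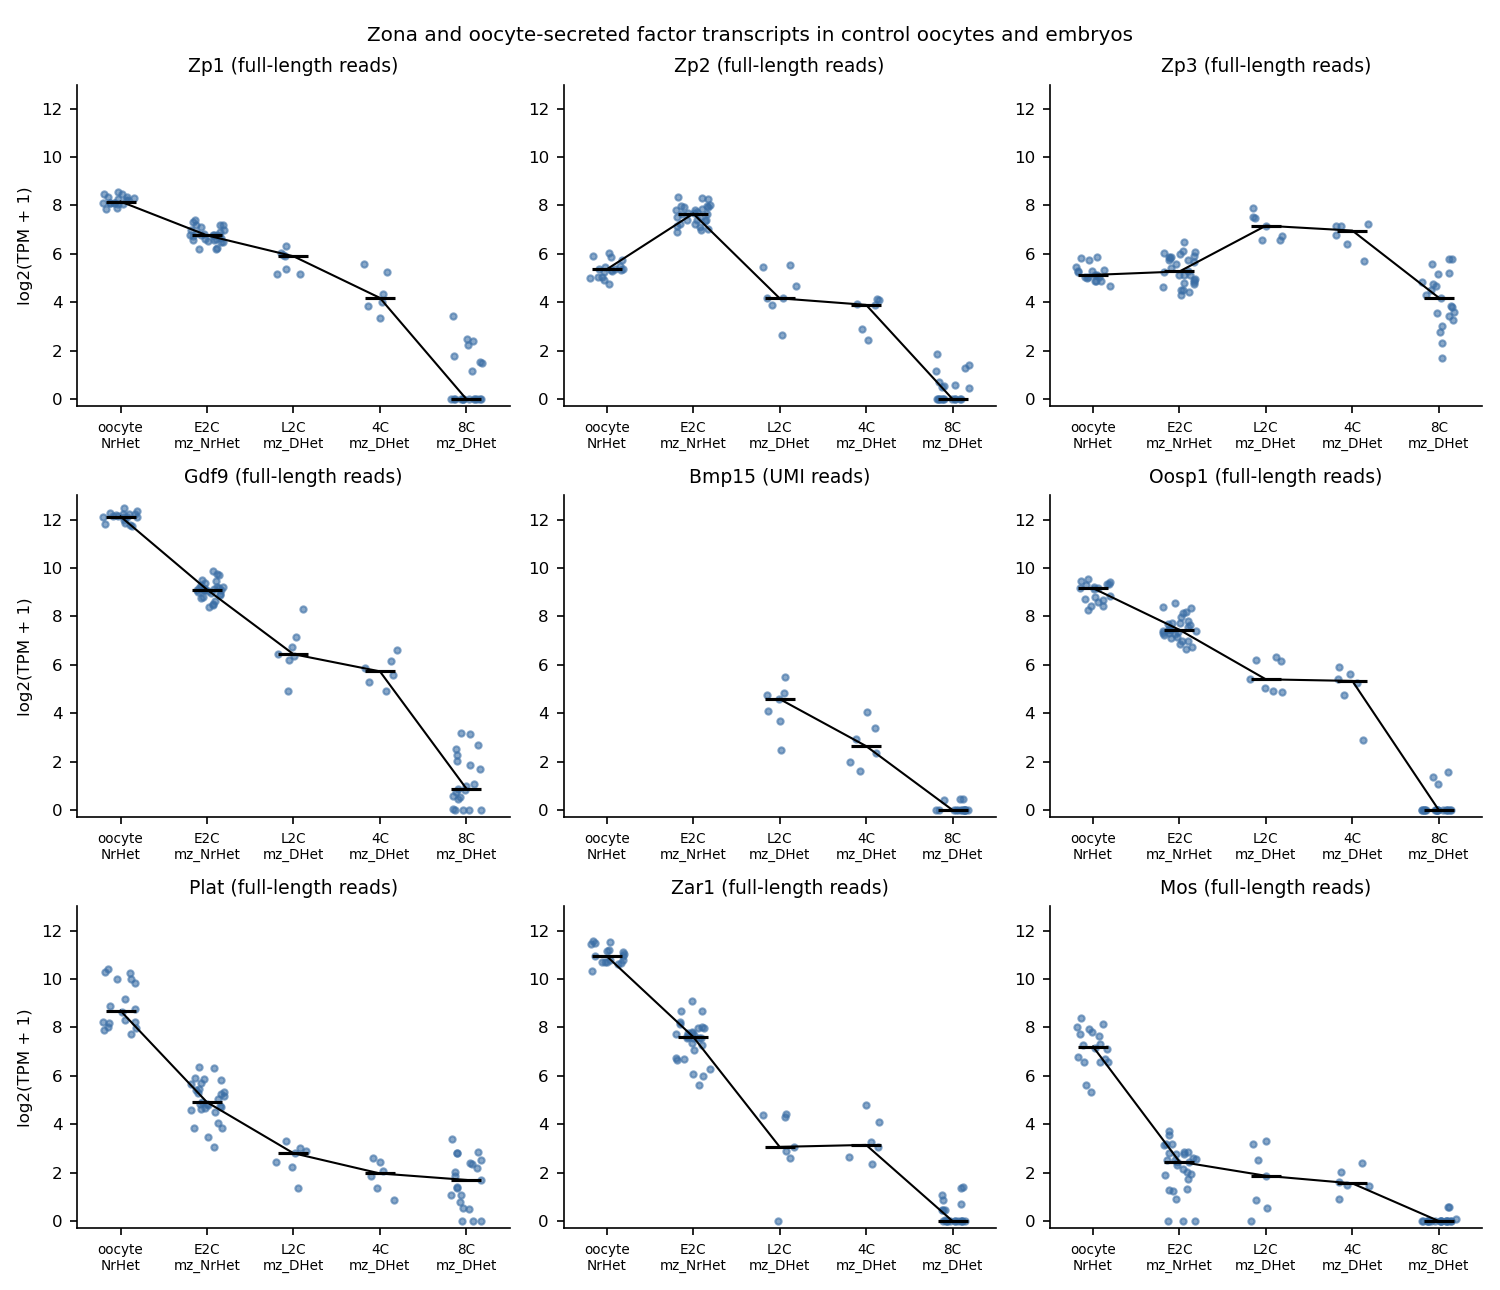
Level of each of the 9 genes in control libraries by stage, as log2(TPM + 1), with 1 point per library and the medians joined by a black line (oocyte NrHet, E2C mz_NrHet, and mz_DHet at L2C, 4C and 8C; Bmp15 from UMI reads, L2C to 8C only). Zp2 peaks at E2C and Zp3 at L2C, at medians of 202 and 142 TPM, while Gdf9 descends from 4488 TPM in the oocyte to 0.851 TPM at 8C.

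Zp1, whose protein cross-links the filaments of the zona, had a lower median at each successive stage. Its TPM in NrHet oocytes ran from 228 through a median of 286 to 372, and in E2C mz_NrHet embryos from 72.4 through 108 to 167. The oocytes and E2C embryos did not overlap. Medians of 58.8 TPM at L2C and 17.3 TPM at 4C followed, and at 8C 13 of 21 mz_DHet embryos were listed at 0. The log2 changes over the 4 steps, the first in the Nrpp line, were -1.62, -1.07, -1.31 and -3.61. Their largest limma adjusted p was 0.00262, at L2C to 4C. That step did not pass with a pseudocount of 0.1 (adjusted p = 0.175), and with the date as a factor in a fit of L2C to 8C it was -0.36 (adjusted p = 0.926).

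Zp2, whose N-terminal domain takes part in sperm binding and is cleaved after fertilization, was higher after fertilization than before. It measured 25.7 to 64.7 TPM (median 40.1) in NrHet oocytes and 118 to 321 TPM (median 202) in E2C mz_NrHet embryos. No NrHet oocyte reached the lowest E2C embryo, and the E2C median was 504% of the oocyte median. In the Nrpp line the log2 rise was 2.11 ± 0.21 (SE; limma adjusted p = 7.12e-17). The level then fell to a median of 16.9 TPM at L2C (log2 change -3.26, adjusted p = 5.25e-28), stood at 13.8 TPM at 4C, and was listed at 0 in 12 of 21 embryos at 8C.

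Zp3, which forms the zona filaments together with Zp2, had yet another course. The NrHet oocytes held 24.2 to 57.3 TPM (median 34.0) and the E2C mz_NrHet embryos 18.8 to 88.2 TPM (median 37.6), ranges that overlap. L2C embryos held 93.4 to 235 TPM (median 142), all of them above the highest E2C control, and the log2 rise was 1.78 ± 0.28 (SE; limma adjusted p = 9.65e-09). The 4C level of 51.6 to 149 TPM (median 125) did not differ from L2C in the test (log2 change -0.39, adjusted p = 0.608). At 8C the level was 2.23 to 54.6 TPM (median 17.2), a log2 fall of -2.64 (adjusted p = 5.84e-13), and no 8C control was listed at 0. The UMI reads, which come from the 5' end, gave medians of 118 TPM at L2C, 102 TPM at 4C and 11.5 TPM at 8C.

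Gdf9 was the most abundant member of the oocyte, with 3399 to 5712 TPM (median 4488) in NrHet. It fell to 335 to 947 TPM (median 552) at E2C, 85.9 TPM at L2C, 52.4 TPM at 4C and 0.851 TPM at 8C, where 4 of 21 embryos were listed at 0. The order of stages was thus the same as for Zp1. The log2 falls were -2.87 from oocyte to E2C in the Nrpp line, -2.51 to L2C and -4.53 from 4C to 8C (limma adjusted p = 1.36e-21, 3.12e-17 and 5.98e-31).

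Bmp15, the partner ligand of Gdf9, could be followed only in UMI reads from L2C on. Its TPM was 4.60 to 44.2 (median 23.1) at L2C and 2.07 to 15.8 (median 5.37) at 4C, and 13 of 16 control embryos were listed at 0 at 8C. In the UMI table none of 8 members tested changed from L2C to 4C by limma, against 5.69% of all genes that fell. An unadjusted p under 0.05 was found in 4 of the members and in 2473 of all 10393 genes. Bmp15 was among those 4 (log2 change -1.55, adjusted p = 0.0596). All 8 tested members fell from 4C to 8C, against 43.3% of all genes. Leaving out UMI mz_DHet embryo 12 left that count at 8, but with the date as a factor in a fit of L2C to 8C it was 5. Bmp15, Zp2 and Zp3 then had log2 changes of -2.72, -2.67 and -2.35 (adjusted p = 0.0987, 0.0603 and 0.0568). In the full-length table the same factor left Zar1 at -2.91 from 4C to 8C (adjusted p = 0.0605).

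Oosp1, a secreted egg protein of the placenta-specific 1 family, measured 305 to 742 TPM (median 576) in NrHet oocytes and 99.5 to 381 TPM (median 174) at E2C. It stood at 41.3 TPM at L2C and 39.5 TPM at 4C and was listed at 0 in 18 of 21 embryos at 8C. Its log2 fall of -4.78 from 4C to 8C was larger than that of Gdf9, -4.53, but both run into the 0 values of 8C and the difference was not tested.

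Plat encodes the protease that activates plasminogen, and it is a textbook example of a message that receives its long poly(A) tail only as the oocyte matures. NrHet oocytes held 211 to 1364 TPM (median 413), and E2C embryos 7.26 to 80.7 TPM (median 29.1). These groups did not overlap. In the Nrpp line the log2 fall was -4.36 ± 0.34 (SE; limma adjusted p = 6.11e-23). L2C embryos had a median of 5.98 TPM, 4C embryos 2.92 TPM and 8C embryos 2.25 TPM. The full-length 4C and 8C levels did not differ in the test (adjusted p = 0.601), whereas UMI Plat fell between them.

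Zar1, a cytoplasmic protein that binds and stores maternal messages, was the next most abundant after Gdf9 in the oocyte, with 1275 to 3058 TPM (median 1972) in NrHet. E2C control embryos held 48.4 to 546 TPM (median 195), without overlap with the oocytes. The L2C median was 7.37 TPM, or 0.374% of the oocyte median, the smallest share among the 8 members at that stage. The log2 change from E2C to L2C was -4.38 ± 0.32 (SE; limma adjusted p = 3.71e-25).

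Mos encodes the kinase that starts the MAPK cascade holding the egg in metaphase. It had 39.0 to 338 TPM (median 147) in NrHet oocytes and 0 to 12.2 TPM (median 4.48) at E2C, 3.04% of the oocyte median and the smallest share of any member there. In the Nrpp line the log2 fall was -5.12 ± 0.34 (SE; limma adjusted p = 7.55e-28). Later levels were low, with medians of 2.66 TPM at L2C and 1.95 TPM at 4C and 18 of 21 embryos listed at 0 at 8C.

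At E2C the members thus stood at very different shares of their oocyte medians in the control. Mos was at 3.04%, Plat at 7.06%, Zar1 at 9.88%, Gdf9 at 12.3%, Oosp1 at 30.2%, Zp1 at 37.7%, Zp3 at 111% and Zp2 at 504%. In knockout specimens (NrKO oocytes to E2C mz_NrKO) the shares were 1.65% for Mos, 4.64% for Plat, 13.2% for Zar1, 10.7% for Gdf9 and 400% for Zp2. The change from oocyte to E2C was compared between knockout and heterozygous specimens as an interaction. By limma none of 8 members passed, and none had an unadjusted p under 0.05, where 0.386% of all 14006 genes were called. The smallest adjusted p was that of Gdf9 (log2 difference of changes -0.33 ± 0.18 (SE), adjusted p = 0.512).

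In oocytes the question was whether stored messages differed with loss of Nr5a2. Of the 8 members tested, 0 passed by limma in NrKO against NrHet, where 0.212% of 8952 genes were called. An unadjusted p under 0.05 was found in 5 members and in 1062 of the 8952 genes. Against Nrpp 0 passed, where 1.2% of genes were called, and 4 members and 1405 genes had an unadjusted p under 0.05. Between the NrHet and Nrpp controls 0 passed, where 0.0335% of genes were called. There 1 member and 662 genes had an unadjusted p under 0.05. The median log2 difference of the 8 members was 0.28 in NrKO against NrHet and 0.23 against Nrpp, and that of all genes 0.0004 and 0.02. These comparisons share the NrKO oocytes.

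Plat had the smallest adjusted p of the members in both knockout comparisons, without passing. NrHet oocytes ran from 211 through 413 to 1364 TPM, and NrKO oocytes from 336 through 1016 to 1548 TPM. The ranges overlap, but 11 of 12 NrKO oocytes lay above the NrHet median. The log2 difference with date in the model was 0.61 ± 0.15 (SE; limma adjusted p = 0.0577), and against Nrpp 0.64 (adjusted p = 0.0519), so that Plat missed the threshold in both.

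Plat also moved with the labelled date. On 5 June the median was 299 TPM in 12 NrHet oocytes and 559 TPM in 6 NrKO oocytes, and on 20 June it was 1132 TPM in 6 NrHet oocytes and 1519 TPM in 6 NrKO oocytes. On the later date the Nrpp median was 1105 TPM, against 282 TPM on the earlier one. Every genotype was thus higher on 20 June, and NrKO was above NrHet on both dates.

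Mos showed the same order. Its NrHet range was 39.0 to 338 TPM (median 147) and its NrKO range 100 to 422 TPM (median 334). By date, NrHet medians were 106 and 250 TPM and NrKO medians 219 and 338 TPM. The log2 difference of 0.78 ± 0.25 (SE) did not pass (limma adjusted p = 0.166), nor did that of 0.93 against Nrpp (adjusted p = 0.0986).

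Zp3 in NrKO oocytes was 37.3 to 78.8 TPM (median 48.5), and all 12 lay above the NrHet median of 34.0 TPM. The difference did not pass against NrHet (log2 difference 0.42, limma adjusted p = 0.122). Against Nrpp, whose median was 54.0 TPM, it was 0.08 (adjusted p = 0.839). Gdf9 had a median of 5318 TPM in NrKO against 4488 TPM in NrHet (log2 difference 0.26, adjusted p = 0.248). Zp2, Zar1, Zp1 and Oosp1 had log2 differences of 0.30, 0.22, 0.02 and -0.08, none of which passed.

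**Figure D2:**
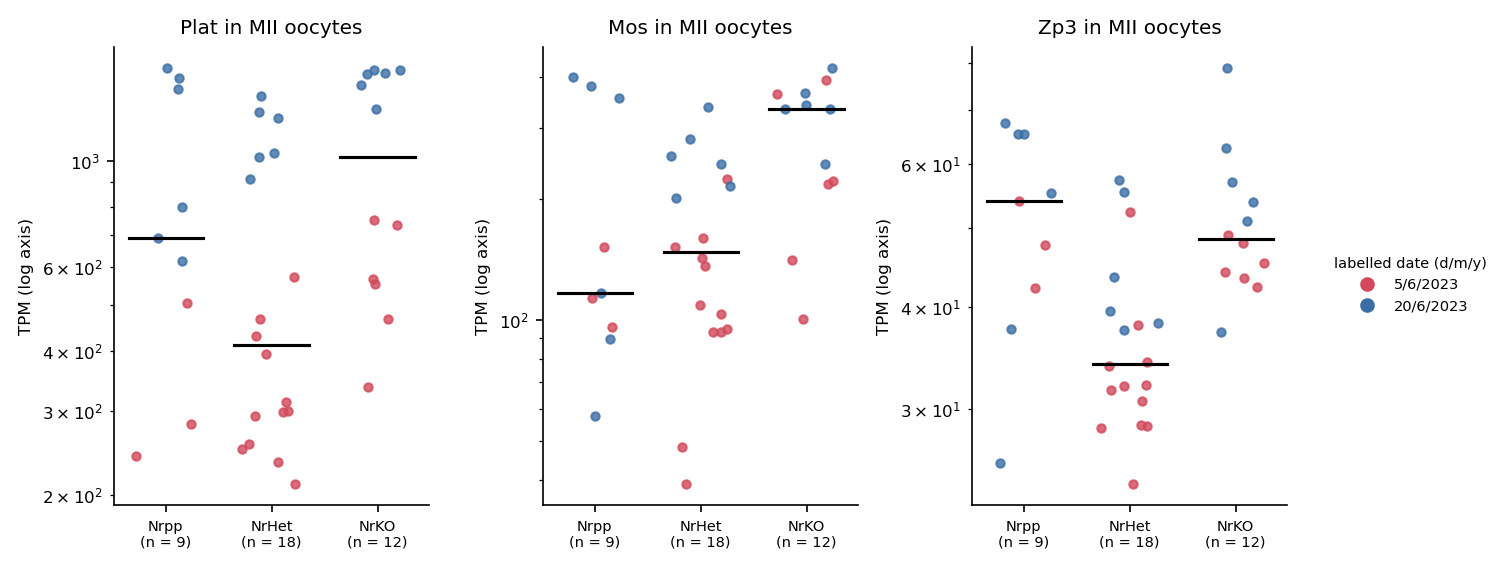
Plat, Mos and Zp3 in MII oocytes of the genotypes Nrpp, NrHet and NrKO, in TPM on a log axis, with 1 point per oocyte coloured by labelled date and a black line at the group median. Plat is higher on 20 June than on 5 June in every genotype, and the NrKO medians of Plat and Mos, 1016 and 334 TPM, lie above those of both controls.

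At E2C, Plat and Zar1 were higher in maternal-zygotic Nr5a2 knockouts than in mz_NrHet, and the other 6 members tested did not pass. Thus 2 of 8 members rose by limma, where 5.17% of 13040 genes were called in either direction and 87 of the 674 called genes were higher. At this stage the genome has begun only its minor wave of transcription.

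Plat measured 7.26 to 80.7 TPM (median 29.1) in mz_NrHet and 26.9 to 97.2 TPM (median 47.1) in mz_NrKO. The groups overlap widely, but 20 of 22 knockout embryos lay above the control median. That median includes 7 mz_NrHet embryos of 11 January, a date with no mz_NrKO embryo. The count and the pooled medians thus compare unlike mixes of dates. The log2 difference was 0.55 ± 0.17 (SE; limma adjusted p = 0.0329). By date, mz_NrHet against mz_NrKO medians were 39.7 and 57.7 TPM on 1 August, 27.7 and 43.4 TPM on 7 November, and 27.6 and 27.8 TPM on 14 November, when only 3 and 2 embryos were measured.

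Zar1 measured 48.4 to 546 TPM (median 195) in mz_NrHet and 69.7 to 622 TPM (median 315) in mz_NrKO. Again the groups overlap, with 17 of 22 knockout embryos above a control median that includes the 7 embryos of 11 January. The log2 difference was 0.55 ± 0.17 (SE; limma adjusted p = 0.031), and medians by date were 215 and 381 TPM, 135 and 213 TPM, and 407 and 510 TPM in the same order of dates. Without mz_NrKO embryo 1, the library that stood apart, the log2 differences were 0.57 for Plat and 0.67 for Zar1 (adjusted p = 0.0218 and 0.0030).

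Neither call passed in the limma fit against the other control or within 1 date. Within 1 August, 7 November and 14 November, the log2 difference from mz_NrHet was 0.49, 0.51 and 0.04 for Plat (limma adjusted p = 0.297, 0.308 and 1.0) and 0.56, 0.57 and 0.30 for Zar1 (adjusted p = 0.198, 0.296 and 1.0), from fewer embryos each. Against mz_Nrpp, Zar1 had a log2 difference of 0.64 (limma adjusted p = 0.0638) and Plat of 0.25 (adjusted p = 0.571). There 0 of 8 members passed, where 1.79% of genes were called. An unadjusted p under 0.05 was found in 4 members and in 2033 of all 13040 genes. The authors' deposited table for mz_NrKO against the same control lists 4 members at an FDR under 0.05. Deposited comparisons were read here for the members only, so the share of all genes at that FDR is not given. The listed log2 fold changes are 0.84 for Zar1 (FDR 7.96e-04), 0.91 for Zp3 (FDR 6.38e-04), 0.78 for Plat (FDR 0.0363) and 0.47 for Zp1 (FDR 0.0244). Between mz_NrHet and mz_Nrpp 0 of 8 passed (0.268% of genes called), and none had an unadjusted p under 0.05. Plat in mz_NrHet lay 0.29 below mz_Nrpp on the log2 scale (adjusted p = 0.711). Both calls were also lost without the filter on low genes (adjusted p = 0.089 for Plat and 0.091 for Zar1).

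**Figure D3:**
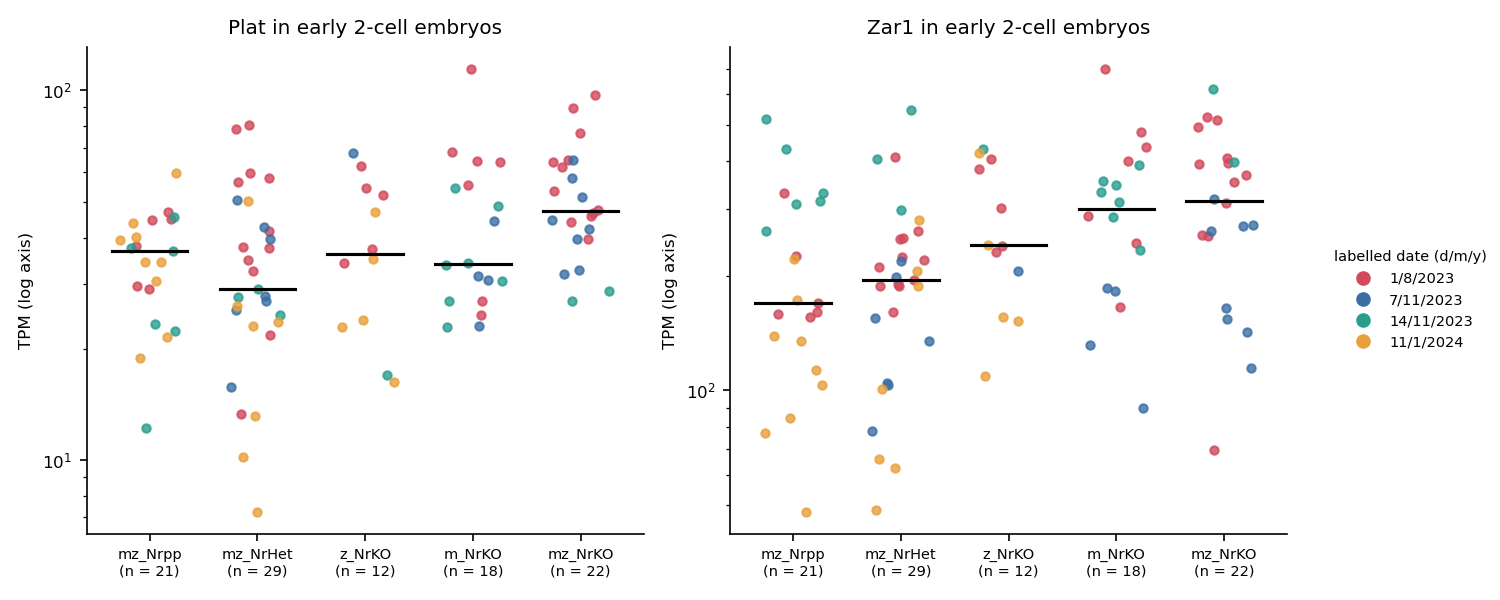
Plat and Zar1 in early 2-cell embryos of 5 genotypes, in TPM on a log axis, with 1 point per embryo coloured by labelled date and a black line at the group median. The mz_NrKO medians, 47.1 TPM for Plat and 315 TPM for Zar1, are the highest of the 5 groups, and all groups overlap. The groups differ in their mix of dates. Embryos of 11 January number 7 in mz_NrHet, 9 in mz_Nrpp and 5 in z_NrKO, and mz_NrKO and m_NrKO hold none.

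The remaining members in mz_NrKO did not pass at E2C, which does not show equal levels. An unadjusted p under 0.05 was found in 3 of the 8 members, Plat and Zar1 included, and in 2554 of all 13040 genes. Mos had a median of 5.51 TPM against 4.48 TPM (log2 difference 0.53, limma adjusted p = 0.227), Zp3 46.0 against 37.6 TPM (0.26, adjusted p = 0.333) and Oosp1 149 against 174 TPM (-0.19, adjusted p = 0.367). Gdf9, Zp1 and Zp2 had log2 differences of -0.08, 0.05 and -0.02. Zp2 thus reached a median of 212 TPM in knockout embryos and 202 TPM in the control.

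Loss of only the maternal or only the zygotic Nr5a2 gave no call among the members against mz_NrHet. In m_NrKO, 0 of 8 passed by limma (0.245% of genes called) and only Plat had an unadjusted p under 0.05 (log2 difference 0.41, adjusted p = 0.287), with a median of 34.0 TPM. In z_NrKO, 0 of 8 passed (0% of genes called), and Zar1 and Mos had an unadjusted p under 0.05 (0.54 and 0.66, adjusted p = 0.878 and 0.899). Of all 13040 genes, 1738 in m_NrKO and 701 in z_NrKO had an unadjusted p under 0.05. The authors' deposited table for z_NrKO, set against mz_Nrpp, lists Zar1 at a log2 fold change of 0.71 (FDR 0.0150), and their table for m_NrKO lists no member at an FDR under 0.05. Direct comparison of mz_NrKO with m_NrKO gave log2 differences of 0.14 ± 0.19 (SE) for Plat and 0.30 ± 0.19 for Zar1, with 0 of 8 members (0% of genes called) passing and 1, Zp3, at an unadjusted p under 0.05. Against z_NrKO they were 0.28 ± 0.22 for Plat and 0.01 ± 0.22 for Zar1, with 0 of 8 passing (0.192% of genes called) and none at an unadjusted p under 0.05. Between m_NrKO and z_NrKO 0 of 8 passed (0.0153% of genes called), with 2 at an unadjusted p under 0.05. Over all genes, 918, 1439 and 1246 had an unadjusted p under 0.05 in these direct comparisons, in the order given.

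Other lists moved beside these members at E2C. The 6 markers of 2-cell genome activation, among them Zscan4c, Zscan4d and Zfp352, summed to a median of 804 TPM in mz_NrHet (72.0 to 2692) and 159 TPM in mz_NrKO (10.0 to 550), and all 6 fell by limma. The 6 egg identity markers summed to 2553 TPM (1154 to 5818) and 2958 TPM (590 to 6288). Cumulus and granulosa markers summed to 67.2 and 77.3 TPM over 16 genes, with 12 and 11 genes at a median of 0, Foxl2, Amh, Fshr and Inha among them, and Cyp19a1 at 53.3 and 65.2 TPM. Their part in the higher Plat and Zar1 was not tested.

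At L2C none of 8 members passed in any of 4 knockout comparisons by limma, and none had an unadjusted p under 0.05. The share of all 14147 genes called was 0.127% in mz_NrKO, 0% in mz_EKO, 0.141% in mz_DKO and 0.099% in z_NrKO. All 10 mz_NrKO and 8 mz_EKO embryos were labelled 8 March 2022, against 2 mz_DHet embryos. The other 5 mz_DHet embryos were of 22 May, and 2 mz_EKO embryos of 17 June. With date as a factor, the mz_NrKO and mz_EKO tests thus rest on few controls of a shared date. A missing call there does not show equal levels. The largest difference was that of Zar1 in mz_NrKO, with 7.96 to 54.7 TPM (median 24.8) against 0 to 20.4 TPM (median 7.37) in mz_DHet, a log2 difference of 1.10 ± 0.74 (SE; adjusted p = 0.737). Zp3 medians were 186 TPM in mz_NrKO, 128 TPM in mz_EKO and 126 TPM in mz_DKO against 142 TPM in mz_DHet, and the ranges overlap. In UMI reads none of 9 members, Bmp15 included, passed or had an unadjusted p under 0.05 (0%, 0%, 0.017% and 0.017% of genes called in the same order). Bmp15 medians were 37.6 TPM in mz_NrKO, 23.0 TPM in mz_EKO and 14.2 TPM in mz_DKO against 23.1 TPM.

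At 4C, 6 members could be tested, since Plat and Mos were under the filter on low genes and Bmp15 has no full-length values. None passed by limma in mz_NrKO (0.675% of 13044 genes called), mz_EKO (0%) or mz_DKO (2.58%). Zp3 had the unadjusted p under 0.05 in mz_EKO and in mz_DKO, as did 803 and 1760 of the 13044 genes. It measured 51.6 to 149 TPM (median 125) in mz_DHet, 93.6 to 240 TPM (median 142) in mz_NrKO, 124 to 236 TPM (median 172) in mz_EKO and 95.1 to 241 TPM (median 161) in mz_DKO. All 3 knockouts had the higher median and all ranges overlapped the control. The log2 differences were 0.46, 0.77 and 0.62 in that order (adjusted p = 0.613, 0.797 and 0.238). At 4C, 3 mz_NrKO and 3 mz_EKO embryos were labelled 22 May 2022, against 1 mz_DHet embryo. A missing call in mz_NrKO or mz_EKO thus does not show equal levels.

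UMI reads at 4C gave 0 of 7 members passing by limma in mz_NrKO (0.159% of genes called), mz_EKO (0%) and mz_DKO (1.17%). An unadjusted p under 0.05 was found in 1, 2 and 1 members, and in 1041, 700 and 1241 of all 10695 genes. Zp3 had log2 differences of 0.68, 1.04 and 0.90 there (adjusted p = 0.467, 0.597 and 0.0804), and was 119 to 268 TPM in mz_DKO against 40.6 to 167 TPM in mz_DHet. The authors' deposited UMI table for 4C mz_DKO lists Zp3 at a log2 fold change of 0.84 with an FDR of 0.0254. Zar1 in mz_EKO was 0 to 5.46 TPM against 4.20 to 27.0 TPM in full-length reads, a log2 difference of -1.41 that did not pass (adjusted p = 0.797).

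At 8C, Zp3 was higher in both genotypes that lack Nr5a2 and not in the Esrrb knockout. It was the only member above the filter at this stage, so the other 8 members were not tested there. The full-length TPM ran from 2.23 through a median of 17.2 to 54.6 in 21 mz_DHet embryos, from 9.40 through 54.6 to 139 in 10 mz_NrKO embryos, from 18.5 through 86.5 to 143 in 10 mz_DKO embryos, and from 4.72 through 16.9 to 36.3 in 10 mz_EKO embryos. All 10 mz_DKO embryos and 8 of 10 mz_NrKO embryos lay above the control median, 7 and 5 of them above every control, while mz_EKO embryos were split 5 and 5. The log2 differences from mz_DHet were 1.36 ± 0.38 (SE; limma adjusted p = 0.00503) in mz_NrKO, 2.27 ± 0.38 (adjusted p = 4.56e-06) in mz_DKO and -0.12 ± 0.38 (adjusted p = 1) in mz_EKO.

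Many genes differed at this stage. Of 10876 genes tested by limma, 28.3% were called in mz_NrKO, 33.7% in mz_DKO and 0.00919% in mz_EKO. A call for Zp3 in the Nr5a2 knockouts is thus close to what many other genes showed.

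UMI reads, which come from the same embryos and are not new specimens, gave Zp3 the same order of log2 differences. The 5 mz_NrKO libraries were closest to full-length mz_NrKO embryos 2 to 6, all labelled 8 March 2022. None was closest to an embryo of 15 July 2022. The TPM ran from 4.75 through 11.5 to 38.8 in 16 mz_DHet libraries, and from 25.1 through 93.8 to 131 in 9 mz_DKO libraries. In the 5 mz_NrKO libraries it was 9.49, 54.8, 103, 117 and 131. In 9 mz_EKO libraries it ran from 5.86 through 17.0 to 32.9. Here 4 of 5 mz_NrKO and 8 of 9 mz_DKO libraries exceeded every control. The log2 differences were 2.22 ± 0.44 (SE; limma adjusted p = 0.000271), 2.58 ± 0.36 (adjusted p = 4.33e-07) and 0.25 ± 0.36 (adjusted p = 0.997) in mz_NrKO, mz_DKO and mz_EKO, where 25.4%, 34.6% and 0.0112% of 8960 genes were called. Without UMI mz_DHet embryo 12, which holds the highest control value, they were 2.32, 2.69 and 0.35 (adjusted p = 7.01e-05, 9.12e-08 and 0.999), and without the date factor 2.22, 2.58 and 0.25 (adjusted p = 0.000211, 2.94e-07 and 0.996).

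**Figure D4:**
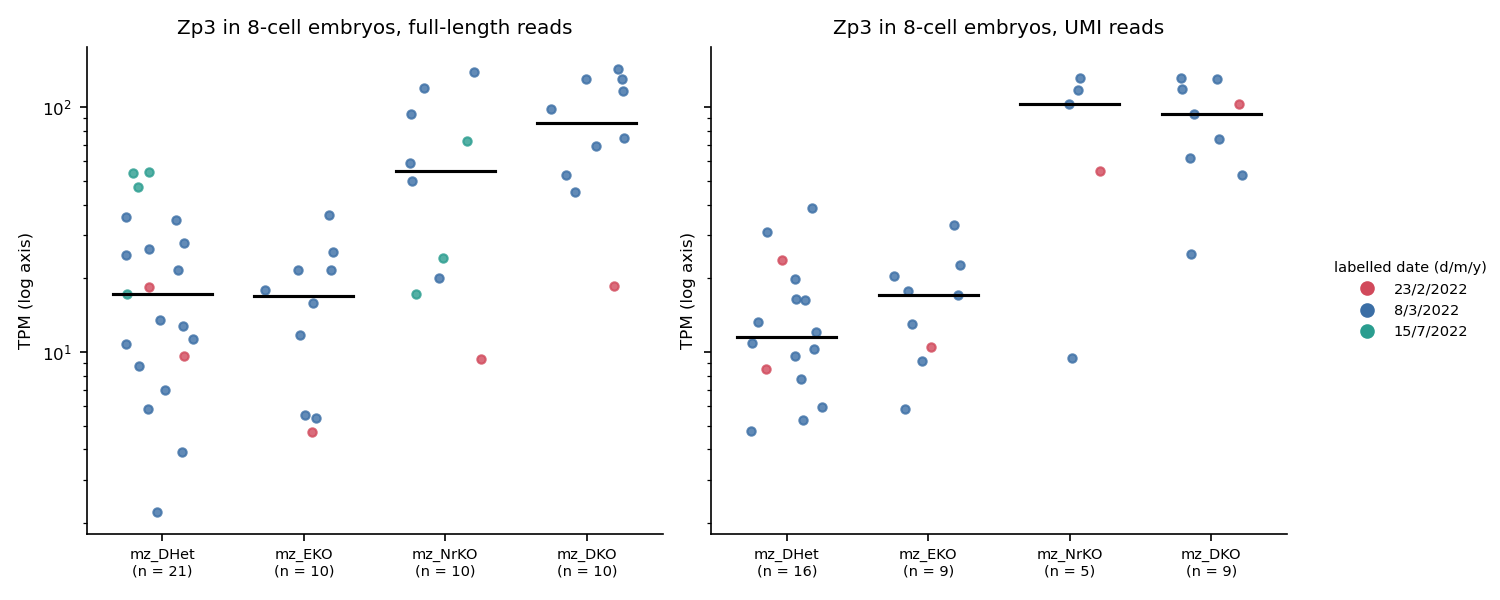
Zp3 in 8-cell embryos by genotype, in TPM on a log axis, from full-length reads (left) and UMI reads (right), with 1 point per library coloured by labelled date and a black line at the group median; labelled dates of the UMI libraries are uncertain because their numbers do not match the full-length ones. The mz_DKO medians, 86.5 and 93.8 TPM, lie above the mz_DHet medians of 17.2 and 11.5 TPM, and mz_EKO stays near the control. UMI libraries coloured as 23 February 2022 were closest to full-length libraries of 8 March 2022.

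The labelled date bears on the single knockout. On 8 March 2022, 15 mz_DHet embryos held 2.23 to 35.5 TPM, 9 mz_DKO embryos 45.2 to 143 TPM and 6 mz_NrKO embryos 20.0 to 139 TPM. The double knockout did not overlap the control on that date, and the mz_NrKO log2 difference within it was 2.30 (limma adjusted p = 5.6e-05). On 15 July 2022, 4 mz_DHet embryos held 17.2 to 54.6 TPM and 3 mz_NrKO embryos 17.2, 24.3 and 72.7 TPM, a log2 difference of -0.32 (adjusted p = 0.75). On 23 February 2022, 1 embryo of each knockout was measured, at 9.40 TPM in mz_NrKO, 18.5 TPM in mz_DKO and 4.72 TPM in mz_EKO, beside 9.67 and 18.5 TPM in mz_DHet. The mz_NrKO difference was larger on 8 March than on 15 July by 2.62 ± 0.85 on the log2 scale (SE), which did not pass (limma adjusted p = 0.157, 0.456% of genes called), so the dates were not shown to differ. The 15 July value rests on 3 and 4 embryos.

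Direct comparison placed both Nr5a2 knockouts above the Esrrb knockout. Zp3 in mz_NrKO exceeded mz_EKO by 1.47 on the log2 scale (limma adjusted p = 0.0146, 22.7% of genes called) and mz_DKO exceeded it by 2.39 (adjusted p = 2.36e-05, 30.2% called). In UMI reads these were 1.97 (adjusted p = 0.00247, 23.8% called) and 2.33 (adjusted p = 2.34e-05, 31.8% called). The double and the single Nr5a2 knockout differed by 0.92 (adjusted p = 0.491, 0.147% called) and in UMI reads by 0.36 (adjusted p = 0.964, 0.0335% called), which did not pass.

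The knockout difference in Zp3 was also compared between stages. In mz_DKO it was larger at 8C than at 4C by 1.65 on the log2 scale (limma adjusted p = 0.0274, 5.8% of genes called) and larger than at L2C by 2.60 (adjusted p = 0.000712, 5.65% called). The call against 4C held in 4 of 6 alternative fits (highest limma adjusted p = 0.0671), and that against L2C in 6 of 6. In mz_NrKO the same differences, 0.91 (adjusted p = 0.532, 1.41% called) and 1.48 (adjusted p = 0.152, 1.95% called), did not pass. UMI reads gave 1.67 (adjusted p = 0.0293, 4.35% called) and 2.90 (adjusted p = 0.000132, 3.76% called) in mz_DKO. In mz_NrKO they gave 1.58 against 4C (adjusted p = 0.204, 1.81% called) and 2.39 against L2C (adjusted p = 0.00982, 2.59% called). The UMI call against 4C in mz_DKO held in 6 of 7 alternative fits (highest limma adjusted p = 0.0519). Without UMI mz_DHet embryo 12 these UMI values were 1.78, 3.01, 1.68 and 2.49, with the same calls. Without the date factor they were 1.64, 2.58, 1.79 and 1.79 (adjusted p = 0.0402, 0.000495, 0.0929 and 0.0257). Since the control fell from a median of 125 TPM at 4C to 17.2 TPM at 8C, the mz_DKO median of 86.5 TPM at 8C lies between the 4C and 8C levels of the control.

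**Figure D5:**
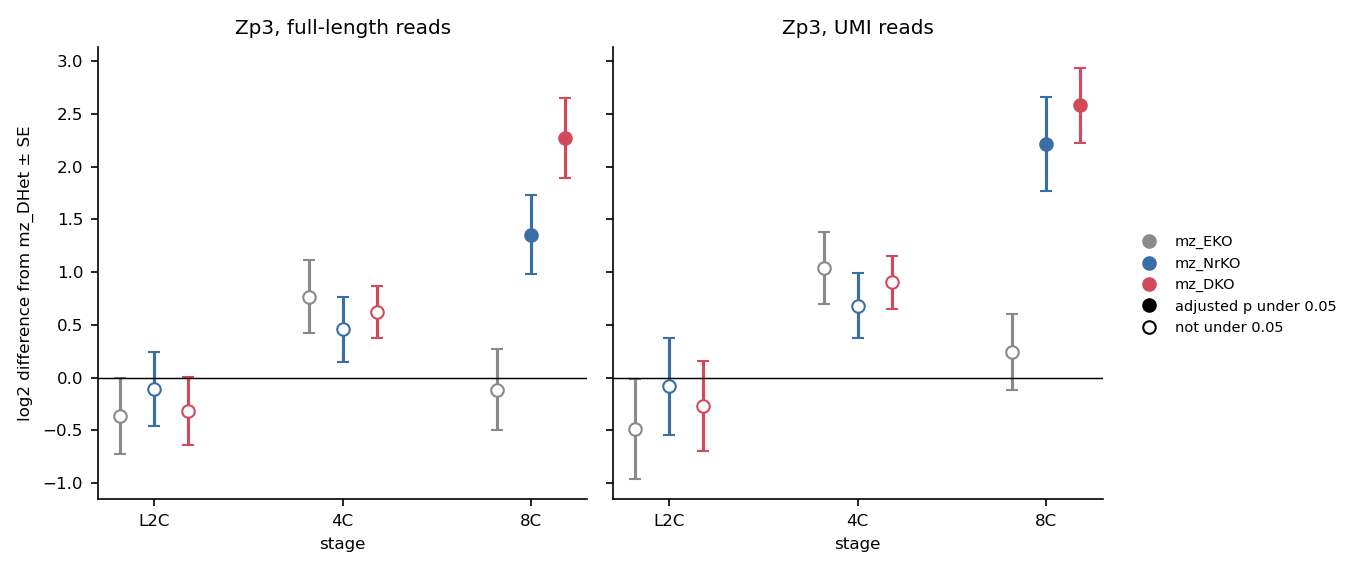
Log2 difference of Zp3 from mz_DHet with its standard error at L2C, 4C and 8C in mz_EKO, mz_NrKO and mz_DKO, from full-length (left) and UMI reads (right); filled points have a limma adjusted p under 0.05. The filled points are those of mz_NrKO and mz_DKO at 8C, at 1.36 and 2.27 on the left and 2.22 and 2.58 on the right.

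The members under the filter at 8C stayed near 0 in every genotype, with a few exceptions that are given as values. Zp2 was above 0 in 8 of 10 mz_DKO embryos (median 2.28 TPM, highest 14.4) and in 8 of 10 mz_NrKO embryos (median 2.02 TPM), but in 1 of 10 mz_EKO embryos and 9 of 21 controls, of which the highest held 2.64 TPM. Plat was at 0 in 7 of 10 mz_DKO embryos and 3 of 21 controls, with a control median of 2.25 TPM. A fit without the filter gave log2 differences in mz_DKO of 1.16 for Zp2 and -1.32 for Plat (limma adjusted p = 0.0116 for each). The authors' deposited table for 8C mz_DKO listed log2 fold changes of 3.09 for Zp2 (FDR 0.0220) and -2.82 for Plat (FDR 4.94e-04), beside 2.35 for Zp3 (FDR 2.44e-10).

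Gdf9, Oosp1, Zar1, Mos and Zp1 showed no such split at 8C. Gdf9 had medians of 0.851 TPM in mz_DHet, 0.802 TPM in mz_EKO, 1.68 TPM in mz_NrKO and 1.24 TPM in mz_DKO. Oosp1 was listed at 0 in all 10 mz_DKO and all 10 mz_EKO embryos, and Mos in 8 of 10 embryos of each knockout. Bmp15 UMI reads were at 0 in 6 of 9 mz_DKO, 4 of 5 mz_NrKO and 7 of 9 mz_EKO libraries.

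Stage markers differed in the same genotypes. Of the 2-cell list 3 of 3 tested genes rose by limma in mz_NrKO and in mz_DKO, and of the 8-cell list 3 and 4 of 5 fell. The egg identity list summed to medians of 1412 TPM in mz_DHet (1083 to 4010), 1398 TPM in mz_EKO (843 to 2177), 2669 TPM in mz_NrKO (1784 to 8747) and 2545 TPM in mz_DKO (2009 to 3027). In controls its sum was 1690 TPM in NrHet oocytes, 2553 TPM in E2C mz_NrHet and 1778 TPM in 4C mz_DHet. The sum of this list thus does not set the egg apart from later stages. The 2-cell list summed to 17.5, 21.1, 118 and 186 TPM, and the 8-cell list, with Cdx2 and Tfap2c, to 1054, 1044, 377 and 354 TPM in the same order. Cumulus and granulosa markers, the other possible source near an egg coat, summed to 1.27, 1.47, 2.64 and 2.98 TPM, with 14 or 15 of 16 genes at a median of 0. The blood list was at medians of 4.05, 9.63, 72.0 and 72.0 TPM, in the same order, and Cd74, the MHC class II invariant chain gene, held most of it, at 3.00, 7.98, 54.4 and 65.9 TPM. Cd74 rose by limma in mz_NrKO (log2 difference 3.30, adjusted p = 1.00e-06) and in mz_DKO (3.46, adjusted p = 2.16e-07). Hba-a2 was at a median of 3.58 TPM in mz_NrKO, 5.55 TPM in mz_DKO and 0 in the other two, and the other 4 genes, Hba-a1, Hbb-bs, Hbb-bt and Ptprc, were at 0 in each genotype. The part of these lists in the Zp3 difference was not tested.

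Of the genes of the same pathways, few passed the test before 8C. The 6 lists held partners of the members: sperm-egg adhesion proteins, receptors and SMADs of the GDF9 and BMP15 pathway, the plasminogen system, proteins of maternal message storage, the Mos-MAPK pathway, and the oocyte transcription factors. In E2C mz_NrKO against mz_NrHet, 3 of 54 tested genes were called by limma, beside 5.17% of all genes. Cpeb1, whose protein binds CPEs, rose by 0.33 on the log2 scale (adjusted p = 0.0431). Acvr1, a type I receptor of the BMP branch, fell by 1.30 (adjusted p = 0.00353), and Taf4b, an oocyte transcription factor, fell by 0.48 (adjusted p = 0.0362). None of the plasminogen genes was called beside Plat.

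In oocytes 1 of 50 list genes was called in NrKO against Nrpp, Furin, the protease that cleaves TGF-beta precursors (log2 difference 0.39, limma adjusted p = 0.0216), beside 1.2% of all genes. At L2C limma called 0 of 56 in each of the 4 comparisons, with between 2 and 5 at an unadjusted p under 0.05. Over all 14147 genes, 1143 in mz_NrKO, 947 in mz_EKO, 1181 in mz_DKO and 1207 in z_NrKO were under 0.05 unadjusted. At 4C Cdc25b, a phosphatase that activates CDK1 in the oocyte, was the only 1 of 51 called in mz_DKO (-2.72, adjusted p = 0.00447), beside 2.58% of all genes. These shares are near those of all genes.

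At 8C 34 list genes could be tested. In mz_NrKO 2 rose and 9 fell, and in mz_DKO 7 rose and 7 fell, beside the 28.3% and 33.7% of all genes called. The E-protein gene Tcf12, whose product pairs with FIGLA on E-boxes, rose in both, by 1.39 in mz_NrKO (limma adjusted p = 0.00429) and 2.81 in mz_DKO (adjusted p = 7.46e-08). Cd9, the egg tetraspanin needed for sperm fusion, fell in both by 1.35 and 1.34 (adjusted p = 5.02e-10 and 2.27e-10). Cdk1, Cdc25b and Map2k2 fell in both, as did Smad7, an inhibitor of the pathway, and Acvr1. Cdc20 rose in both, by 0.51 and 0.72, and Furin and Itga6 rose in mz_DKO, by 1.33 and 0.88.

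Across the 22 groups of the full-length table, the profile of Zp3 stood apart from those of the other members. Pearson correlations over group means, on the log2 scale, were 0.98 between Gdf9 and Oosp1 and 0.98 between Gdf9 and Zp1, whereas those of Zp3 with the other 7 ran from -0.34 to 0.20. Among those 7 the lowest was 0.49, between Zp2 and Mos. Among 11031 genes that reached 10 TPM as the mean of some group, the profiles most like each member were Mdm1, Slain1 and Scn10a for Zp1 (r = 0.99 for the first), Cnst, Efcab6 and Hpcal1 for Zp2 (0.99), and Stk38l, Atf1 and Ncapd2 for Zp3 (0.94). They were Itprid2 for Gdf9 (0.99), Ric1 for Oosp1 (0.99), Dse for Plat (0.99), Opn3 for Zar1 (0.99) and Vwa2 for Mos (0.98). Bmp15 was followed over 14 UMI groups and was most like Itga9 (0.99). The groups share stages and dates, so these correlations describe the time course and carry no test.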

How the data were processed

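Expression was measured in single MII oocytes and whole embryos of the mouse. The authors deposited TPM values per library, for full-length and for UMI reads, and tables of their own comparisons with log2 fold changes and adjusted p-values (FDR). Per the submitters' processing notes the tools were cutadapt, STAR, RSEM and DESeq2 with build mm10, whose versions are not given in the sources used here. Per the labels, UMI values of oocytes and early 2-cell embryos are left out of the processed tables. TPM sums over named genes were 814735 to 995883 per full-length library and 1000000 per UMI library, and 65 full-length entries without a gene name were left out. TPM keep no read depth, so precision rests on the number of specimens. Groups were taken from the genotype and stage labels. Where nothing says that specimens came from separate mothers, p-values measure only the spread between these specimens, which may share a litter.

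The log2 values were computed here as log2(TPM + 1). Genes with at least 5 TPM in as many libraries as the smallest group were tested by limma 3.58.1 (trend, R 4.3.3), 2-sided, with all genotypes of a stage in a single fit, the labelled date as a factor, and Benjamini-Hochberg adjustment over all genes tested at 0.05. Fits of the control time course held no date factor. Tests were checked on simulated data. Alternatives were a pseudocount of 0.1, no filter, a filter at 10 TPM, median-of-ratios scaling, no date factor, single dates, a replicate block and leaving out single libraries. Embryo numbers in general did not pair specimens. Leaving out UMI mz_DHet embryo 12, the comparisons between stages, the direct 8C comparisons and the comparison of 8C dates were chosen after seeing the data. The members, pathway lists and markers were chosen with earlier results of these data known. All members are named, and for each its 3 most similar profiles were found by Pearson correlation of group means.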

Additional observations from a re-analysis of the deposited data

Results flagged for a closer look

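Among 83 sets of values, each of 1 gene in 1 group of 4 to 10 libraries, 6 held a library far from the rest. Distance was judged by Dixon's ratio, and chance alone flags about 1 in 20 sets. The sets share libraries, so they are not independent. Zar1 was 753 TPM (752.87) in Nrpp oocyte 6, where the next lowest of 9 held 1495.1 TPM. At L2C, Zar1 was 0 TPM (0.0) in mz_DHet embryo 5, with 5.17 TPM the next of 7, and 70.6 TPM in mz_EKO embryo 10, with 23.5 TPM the next of 10. Zp1 at L2C was 7.95 TPM in mz_NrKO embryo 7, with 39.8 TPM the next of 10. In a single 4C mz_EKO embryo, number 4, Zp2 was 0 TPM (next 9.42 TPM) and Oosp1 3.59 TPM (next 43.4 TPM), in a group of 4.

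The knockout difference of Zp3 changed between stages by limma. In mz_DKO it was larger at 8C than at 4C by 1.65 and than at L2C by 2.60 on the log2 scale. In UMI reads it was larger at 8C than at 4C by 1.67 and than at L2C by 2.90 in mz_DKO, and larger than at L2C by 2.39 in mz_NrKO. The mz_DKO call against 4C held in 4 of 6 alternative fits of full-length reads and in 6 of 7 of UMI reads.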

How the results depend on the processing

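TPM hold no depth, so low values of 8C, where 8 of 9 members were under the filter, cannot be given a counting error. Of the summary counts of called members, 288 kept within 1.5 times of the reported count across alternatives and 25 did not. The counts that follow are given without the share of all genes called in each alternative fit. A filter at 10 TPM gave 1 call, Plat, in NrKO oocytes against either control (limma adjusted p = 0.0481 against NrHet, 0.044 against Nrpp), and 2 from L2C to 4C (Zp1, Zp2). Without a filter there were 0 in E2C mz_NrKO against mz_NrHet, 3 in 8C mz_DKO (Plat, Zp2, Zp3) in full-length and in UMI reads, and 1 from L2C to 4C in UMI reads (Mos). A pseudocount of 0.1 and a date factor across L2C to 8C each gave 0 from L2C to 4C, and the date factor gave 5 from 4C to 8C in UMI reads. E2C mz_NrKO against mz_Nrpp gave 2 with median-of-ratios scaling (Zar1, Zp3), 2 without the date (Oosp1, Plat) and 2 without mz_NrKO replicate 1 (Zar1, Zp3).

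Single dates gave 0 in E2C mz_NrKO against mz_NrHet on each of 3 dates. NrKO against Nrpp oocytes gave 1 on 5 June (Gdf9). At 8C, 8 March 2022 gave 2 in mz_NrKO and 2 in mz_DKO (Plat, Zp3 in both), and 15 July 2022 gave 0 in mz_NrKO, where Zp3 turned to -0.32. In the fits of all 8C dates, 28.3% of all genes were called in mz_NrKO and 33.7% in mz_DKO. On 14 November Oosp1 turned to 0.017 in mz_NrHet and 0.054 in mz_NrKO against mz_Nrpp. Zp3 from oocyte to E2C turned from -0.52 to 0.13 with NrHet and mz_NrHet as controls. The cause was not tested in these cases.

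Embryo numbers were tried as a replicate block. The block gave 1 call in NrKO against Nrpp oocytes (Plat), 0 in E2C mz_NrKO against mz_NrHet (Plat adjusted p = 0.13, Zar1 0.29), 1 in mz_NrHet (Oosp1) and 3 in mz_NrKO against mz_Nrpp (Oosp1, Plat, Zar1), and 2 in mz_NrKO against z_NrKO (Oosp1, Plat). Leaving out single UMI 8C libraries kept Zp3 in mz_NrKO between 1.94 and 2.88.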
